A study of Mus musculus with 2 samples.

Results

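Ifng, Tbx21, Ccl3, Ccl4, Ccl5 and Xcl1 are genes of the type 1 (Th1) helper programme and of its secreted chemokines. These 6 genes were chosen by symbol, out of 32285 genes in the deposited gene table. They were read as raw unique molecular identifiers (UMIs, each 1 captured mRNA molecule) in barcodes of 500 UMIs and 250 genes or more whose mitochondrial share was 10% or less, which gave 352 cells in one library and 156 in the other, 508 in all.

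Both libraries hold wild-type donor CD4 T cells. The donors were sensitized with house dust mite on day 0 and on days 7 to 11, and on day 14 their lung CD4 T cells were transferred after labelling with Cell Trace Violet, whose dye thins out as cells divide. One set of hosts was C57BL/6 (the WT host) and the other MARCH1-/-, lacking a ubiquitin ligase that lowers MHC class II and CD86 on antigen-presenting cells, so the deletion was in the host and not in the cells sequenced. Both were challenged with house dust mite, and lung donor cells low in dye, that is cells that had divided, were taken by sorting at day 4. Each host genotype is 1 library with no replicate, so no test was made. All intervals are 95% and cover counting error only.

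Interferon-gamma is the defining cytokine of Th1 cells and acts on most cell types through the receptor Ifngr1 and Ifngr2, and T-bet, encoded by Tbx21, is the transcription factor that drives it. Activated T cells and natural killer cells release it together with chemokines: Ccl3, Ccl4 and Ccl5 attract cells that carry CC chemokine receptors such as Ccr1, and Xcl1 attracts dendritic cells that carry Xcr1. House dust mite drives mainly a type 2 response, with Il4, Il5 and Il13, in the lung.

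The 4 chemokines are not of 1 class. Below are 30 bases of coding sequence of 3 of them, sense strand, around the first cysteines of the mature part, from GENCODE M21 transcripts of build GRCm38, with the cysteine codons in capitals. They are shown because chemokine classes are named by these cysteines. They cover codons 30 to 39 of Ccl4, 29 to 38 of Ccl5 and 28 to 37 of Xcl1, counted from the start codon.
Ccl4: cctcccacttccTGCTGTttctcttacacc
Ccl5: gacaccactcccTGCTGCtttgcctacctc
Xcl1: gaagagagtagcTGTgtgaacttacaaacc
Ccl4 and Ccl5 hold 2 cysteine codons side by side, the mark of CC chemokines, to which Ccl3 also belongs, while Xcl1 holds a single one and is a C chemokine. The last 500 bases of each member's transcript, where a 3' library reads, shared no word of 30 bases with any other gene's transcripts for any of the 6 members.

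In GRCm38, Ifng (ENSMUSG00000055170) lies at chr10:118441046-118445892 on the plus strand and overlaps the gene model Gm49751 on the same strand. Tbx21 (ENSMUSG00000001444) lies at chr11:97098071-97115331 on the minus strand. Ccl5, Ccl3 and Ccl4 lie on the chromosome of Tbx21: Ccl5 (ENSMUSG00000035042) at chr11:83525778-83530518, minus strand, Ccl3 (ENSMUSG00000000982) at chr11:83647844-83649355, minus strand, and Ccl4 (ENSMUSG00000018930) at chr11:83662584-83664683, plus strand. Ccl3 and Ccl4 are 13228 bases apart with no gene between them, and Ccl5 lies 117325 bases from Ccl3 with Ccl9, Ccl6 and Rpl9-ps1 between. Xcl1 (ENSMUSG00000026573) lies at chr1:164931644-164935527 on the minus strand and is overlapped by Gm20743 on the other strand.

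The start regions of Ifng, Ccl3 and Xcl1 are printed because Ifng and Ccl3 shared producing cells and were both lower in 1 library in the data below, and Xcl1 was not lower. They run from 250 bases before to 50 bases after the start site, 5′ to 3′ on the gene's strand, from RefSeq on GRCm38.p6, and 4 of the 6 members have an entry. Capitals mark 2 motifs searched on both strands: GGAAA, the core bound by NFAT, the calcium-driven factor of T cell activation, and GGTGTG, a part of the T-box site that T-bet binds.
Ifng, chr10:118440796-118441095, plus strand: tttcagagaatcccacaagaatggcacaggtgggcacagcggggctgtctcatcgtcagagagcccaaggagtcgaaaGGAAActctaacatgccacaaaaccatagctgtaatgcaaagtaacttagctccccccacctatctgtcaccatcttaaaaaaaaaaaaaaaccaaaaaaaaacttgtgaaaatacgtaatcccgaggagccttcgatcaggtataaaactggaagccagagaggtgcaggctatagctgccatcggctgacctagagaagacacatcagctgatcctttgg
Ccl3, chr11:83649329-83649628, minus strand: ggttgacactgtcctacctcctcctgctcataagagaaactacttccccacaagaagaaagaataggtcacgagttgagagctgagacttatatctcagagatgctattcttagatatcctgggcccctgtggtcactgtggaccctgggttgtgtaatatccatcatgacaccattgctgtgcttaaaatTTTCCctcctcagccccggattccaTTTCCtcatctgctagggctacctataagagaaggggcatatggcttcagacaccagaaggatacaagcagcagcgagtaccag
Xcl1, chr1:164935473-164935772, minus strand: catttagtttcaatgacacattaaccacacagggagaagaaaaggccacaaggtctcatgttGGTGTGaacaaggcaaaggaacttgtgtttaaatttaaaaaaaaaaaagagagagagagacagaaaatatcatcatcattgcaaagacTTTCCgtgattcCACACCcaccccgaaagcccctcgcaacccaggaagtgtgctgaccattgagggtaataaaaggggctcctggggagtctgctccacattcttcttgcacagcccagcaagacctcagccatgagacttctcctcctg
GGAAA was found once in Ifng, 2 times in Ccl3 and once in Xcl1, and 61.3% of 32851 promoters of this length hold it. GGTGTG was found 2 times in Xcl1, once on each strand, and in neither of the other 2 windows, against 19.0% of all promoters. These matches are letters only and were not tied to binding.

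The WT-host cells held 2571048 UMIs with a median of 6086.5 a cell, and the MARCH1-/- host cells 1575581 with a median of 8017, and the libraries shared 0 cell barcodes. All 12 CD4 T cell markers of the fixed list were present in both, at 4474 and 5938 summed counts per 1e6 UMIs (CPM). Of the CD8 T cell list Cd8a was at 0 in both libraries and Cd8b1 had UMIs in 23 and 13 cells. Cells with a member UMI held Cd8b1 in 5 of 84 WT-host cases (5.95%, against 6.53% of all cells). In the MARCH1-/- host library 6 of 26 did (23.1%, against 8.33% of all cells). There Cd8b1 was in 4 of 11 Tbx21 cells, against 6.21% of the others. Cells with Cd8b1 were deep in that library, with a median of 13356 UMIs against 7907. The natural killer list had 251 and 197 UMIs in 57 and 44 cells, of which Klrg1, also found on T cells, gave 248 and 197, and its defining genes Ncr1 and Klrb1c were at 0 in both. Gamma-delta T cell markers had UMIs in 8 of the 84 WT-host cells with a member UMI and in 0 of the 26 MARCH1-/- host ones, dendritic cell markers in 4 and 0, and macrophage markers in 0 and 0. B cell markers had 59 and 164 UMIs, in 4 of the 84 and in 6 of the 26 member cells. The part of these markers in the results was not tested. RNA of cell cycle genes differed between the libraries: cells with at least 0.5% of their UMIs in the cell cycle list, called cycling here, were 58 (16.5%) and 45 (28.8%), and they held 28.5% and 49.6% of all cell UMIs. That share is a range with a cut in it, and 22 and 9 cells lay between 0.4% and 0.6%. The median gene with at least 50 UMIs was 0.25 higher in the MARCH1-/- host library on the log2 scale.

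At least 1 UMI of any of the 6 genes was found in 84 WT-host cells (23.9%, 19.5 to 28.7) and in 26 MARCH1-/- host cells (16.7%, 11.2 to 23.5). The difference was -7.20 percentage points (Newcombe interval -14.1 to 0.63), so the shares of producing cells could not be told apart within counting error. Any of the 4 chemokines was found in 46 (13.1%) and 13 (8.33%) cells. RNA from droplets without a cell, read from barcodes of 10 to 100 UMIs, would put a UMI of a given member into at most 0.164% of WT-host cells and 0.357% of MARCH1-/- host cells, below every member's share of cells. The plot of UMIs in each positive cell shows a long upper tail for every member but Tbx21.

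**Figure D1:**
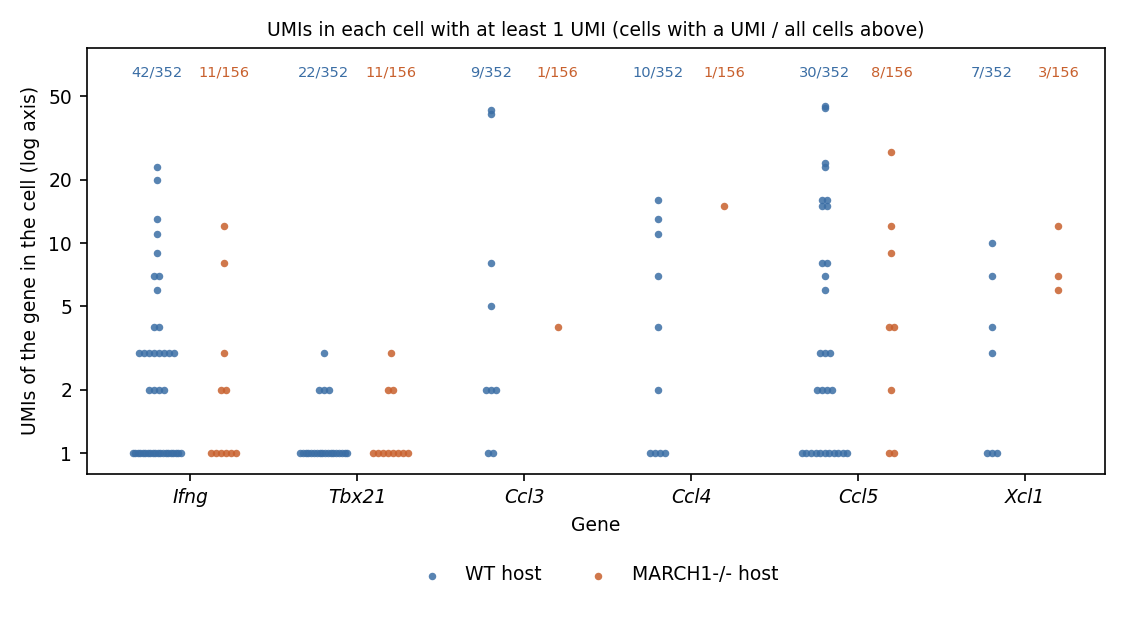
Each point is 1 cell with at least 1 UMI of the gene, in the WT-host library (blue) or the MARCH1-/- host library (orange); the y axis is the gene's UMIs in that cell on a log scale, and the numbers above give cells with a UMI over all cells. Tbx21 never passes 3 UMIs in a cell, while 2 WT-host cells hold 43 and 41 UMIs of Ccl3.

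A large part of the members' RNA was outside cells. Of all UMIs 68.5% lay in WT-host cells and 81.5% in MARCH1-/- host cells, but of Xcl1 15.9% and 22.5% did, and of Ccl4 30% and 62.5%. Ccl5 in the WT-host library, at 71.4%, was the one member above the share of all genes in its library. The levels given here are those of the RNA found in cells.

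**Figure D2:**
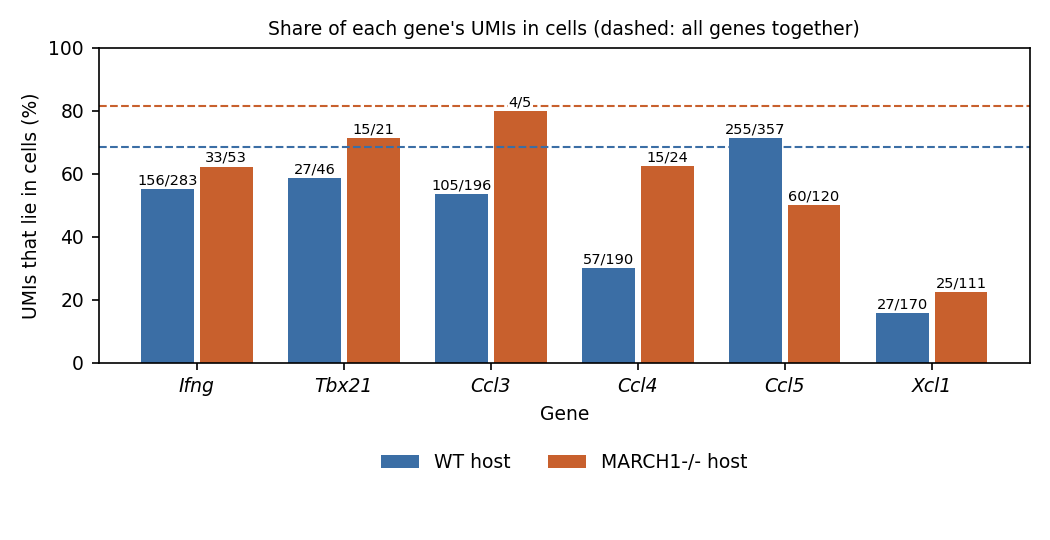
Bars give the share of each gene's UMIs that lay in cells, by library (blue WT host, orange MARCH1-/- host), with UMIs in cells over all UMIs above, and dashed lines give the share over all genes. Xcl1 is lowest in both libraries, and Ccl5 in the WT-host library is the one bar above its line.

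Ifng, the cytokine itself, had 156 UMIs in 42 of 352 WT-host cells (11.9%, 8.74 to 15.8) and 33 UMIs in 11 of 156 MARCH1-/- host cells (7.05%, 3.57 to 12.3). The 5 highest WT-host cells held 23, 20, 13, 11 and 9 UMIs, and the 5 highest MARCH1-/- host cells 12, 8, 3, 2 and 2. Of the producing cells, 20 of 42 and 6 of 11 held a single UMI, so the 2 libraries overlapped over most of the range and differed in the upper end. Summed over cells, Ifng stood at 60.7 CPM (51.5 to 71.0) in the WT-host library, 2.90-fold above the 20.9 CPM (14.4 to 29.4) of the other. On the log2 scale the ratio, MARCH1-/- host over WT host, was -1.53 (-2.12 to -0.99). The share of cells differed by -4.88 points (-9.77 to 1.06), an interval that includes 0. After each cell was thinned to 1000 UMIs, which left out 11 WT-host cells and 0 MARCH1-/- host cells, Ifng was seen in 5.28% and 1.92% of cells.

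The intervals of CPM ratios treat each molecule as a separate draw, and for genes held by so few cells they are too narrow. Without the 5 highest cells of each library, which are a larger part of the smaller library, the Ifng ratio was -3.02 (-4.51 to -1.83). Without the highest 1% of cells in each it was -2.08 (-3.04 to -1.23). The cells left out were picked by their Ifng UMIs, and the 2 MARCH1-/- host ones held 20 of the 33 UMIs there. These ratios therefore do not show how much of the difference the top cells hold. Ifng molecules were scarce in cycling cells: those cells held 12 of the 156 UMIs in the WT-host library and 3 of the 33 in the other. By share of cells with an Ifng UMI they were near the others: 13.8% of cycling and 11.6% of other WT-host cells. The MARCH1-/- host shares were 6.67% and 7.21%. Among the cells that were not cycling Ifng stood at 78.4 CPM and 37.8 CPM, a log2 ratio of -1.05 (-1.67 to -0.48). The direction was the same and the size smaller in the cells outside the cycle, and with each cell weighted equally the ratio was -1.03.

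Tbx21 did not follow Ifng. It had 27 UMIs in 22 WT-host cells (6.25%) and 15 UMIs in 11 MARCH1-/- host cells (7.05%), at 10.5 CPM and 9.52 CPM. No cell in either library held more than 3 UMIs, and 18 of 22 and 8 of 11 positive cells held 1. The log2 ratio was -0.14 (-1.16 to 0.82), a wide interval around 0, and the shares of cells differed by 0.80 points (-3.51 to 6.34). T-bet mRNA was near the lowest level that can be counted here, and a cell without a Tbx21 UMI is not shown to lack it.

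Ccl3, also called MIP-1 alpha, showed the widest gap between the libraries. The 9 WT-host cells with it held 43, 41, 8, 5, 2, 2, 2, 1 and 1 UMIs, 105 in all, and the single MARCH1-/- host cell held 4. The WT-host level was 40.8 CPM (33.4 to 49.4), while the MARCH1-/- host level was 2.54 CPM (0.69 to 6.50). The log2 ratio was -4.01 (-5.91 to -2.61). The 2 highest WT-host cells carried 84 of the 105 UMIs, and the shares of cells, 2.56% and 0.64%, differed by -1.92 points (-4.21 to 1.23). Most of the molecules thus lay in 2 cells, and the gap in producing cells was within counting error.

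Ccl4, MIP-1 beta, the neighbour of Ccl3, was held by 10 WT-host cells with 16, 13, 11, 7, 4, 2, 1, 1, 1 and 1 UMIs and by 1 MARCH1-/- host cell with 15. The sums, 57 and 15 UMIs, correspond to 22.2 CPM and 9.52 CPM and a log2 ratio of -1.22 (-2.15 to -0.38). The 1 MARCH1-/- host cell was as high as the highest WT-host cell but for 1 UMI, so the level in that library rests on a single cell. In the WT-host library 27 of the 57 UMIs lay in 3 cycling cells. Without cycling cells the ratio turned to 0.21 (-0.79 to 1.15), and with each cell weighted equally it was -0.057, so Ccl4 has no stable direction.

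Ccl5, RANTES, was the most abundant chemokine of the 4 in UMIs, with 255 in 30 WT-host cells (8.52%, 5.82 to 11.9) and 60 in 8 MARCH1-/- host cells (5.13%, 2.24 to 9.85). The highest WT-host cells held 45, 44, 24, 23 and 16 UMIs, and the MARCH1-/- host cells 27, 12, 9, 4, 4, 2, 1 and 1. Its level was 99.2 CPM (87.4 to 112) in the WT-host library. In the MARCH1-/- host library it was 38.1 CPM (29.1 to 49.0), which gives a log2 ratio of -1.38 (-1.81 to -0.97). The shares of cells differed by -3.39 points (-7.61 to 1.89), again an interval that includes 0. Ccl5 cells were shallow: their median depth was 4014 UMIs against 6457.5 in the other WT-host cells, and 3740 against 8303.5 in the MARCH1-/- host library. They were also mostly outside the cycle, with 7 of 255 and 2 of 60 UMIs in cycling cells, and among the remaining cells the levels were 135 CPM and 73.0 CPM, a log2 ratio of -0.89 (-1.33 to -0.47). Without the 1 highest cell of each library the ratio was -1.96 (-2.54 to -1.43), and without the 5 highest -3.97 (-5.87 to -2.57). The cells left out were picked by their Ccl5 UMIs. The 5 held 56 of the 60 UMIs in the MARCH1-/- host library and 152 of the 255 in the other. These 2 ratios therefore do not show how much of the difference the top cells hold.

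Among the members only Xcl1, lymphotactin, had a ratio above 0 over all cells, though its interval included 0, as did that of Tbx21. The 7 WT-host Xcl1 cells held 10, 7, 4, 3, 1, 1 and 1 UMIs and the 3 MARCH1-/- host ones 12, 7 and 6, that is 10.5 CPM and 15.9 CPM. The log2 ratio was 0.60 (-0.25 to 1.44), an interval that includes 0, and 1.99% and 1.92% of cells held it. One of the 3 MARCH1-/- host cells, the one with 6 UMIs, was called a doublet by Scrublet, and without the called doublets the ratio was 0.23 (-0.69 to 1.13).

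Against all genes, 4 of the 5 members with at least 50 UMIs in both libraries together (Ifng, Ccl3, Ccl4 and Ccl5) had a log2 ratio at or below -1, where 2.81% of 6762 such genes did. At or above 1 stood 0 of these 5 members, against 6.97% of genes. Tbx21, with 42 UMIs, was below that filter. The plot of ratios with and without cycling cells sets the members side by side. Leaving out cycling cells moved Ifng, Ccl3, Ccl4 and Ccl5 toward 0, with Ccl4 passing it, and whether the larger share of cycling RNA in the MARCH1-/- host library accounts for part of the difference was not tested beyond these values.

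**Figure D3:**
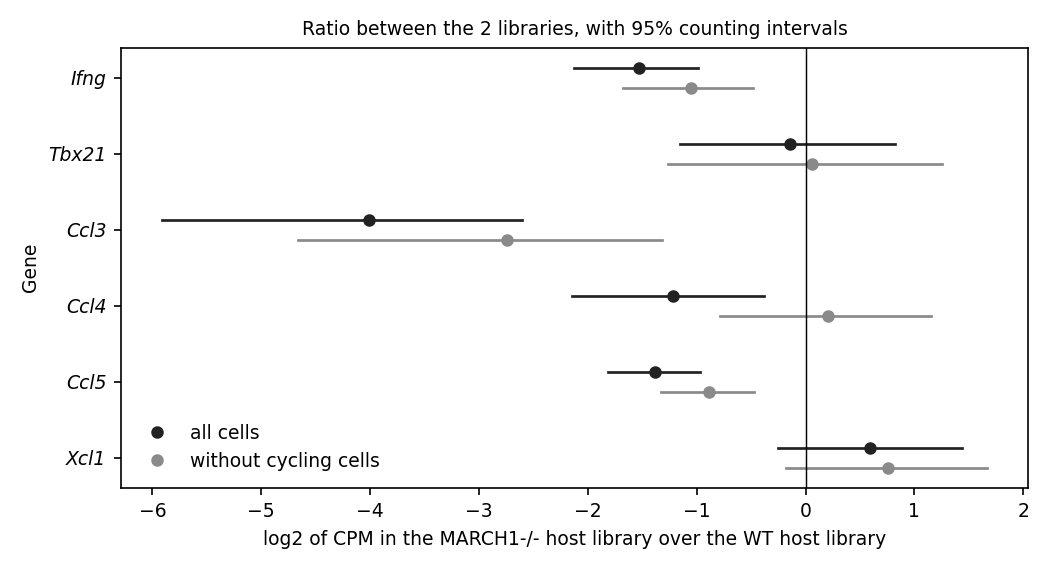
Points are log2 ratios of CPM, MARCH1-/- host over WT host, for all cells (black) and without cycling cells (grey), and lines are 95% counting intervals. Ccl3 lies farthest below 0, Ccl4 moves from -1.22 to 0.21, and the intervals of Tbx21 and Xcl1 include 0 under both.

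The chemokines were concentrated in few cells to a degree reached by few genes. In the WT-host library 4 of the 6 members (Ccl3, Ccl4, Ccl5 and Xcl1) had at least 50% of their UMIs in 5 cells, a property of 1.35% of the 7626 genes with at least 20 UMIs there. The 5 highest cells held 94.3% of Ccl3, 92.6% of Xcl1, 89.5% of Ccl4 and 59.6% of Ccl5, against a median of 17.1% over these genes. Ifng stood just below the line at 48.7% and Tbx21 at 37.0%. In the MARCH1-/- host library all 3 members with at least 20 UMIs (Ifng, Ccl5 and Xcl1) passed, at 81.8%, 93.3% and 100%, against 2.59% of 6861 genes and a median of 24%. That library has fewer cells, so the same 5 cells are a larger part of it.

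Producing cells overlapped in part. In the WT-host library 26 cells held UMIs of 2 or more members, 8 held 3 or more and the most was 4, and 13 of the 15 member pairs shared at least 1 cell. In the MARCH1-/- host library 8 cells held 2 or more, 1 held 3 and 4 pairs shared a cell. Ifng was in 7 of the 9 WT-host Ccl3 cells (77.8%, 40.0 to 97.2) and in 7 of the 10 Ccl4 cells (70.0%, 34.8 to 93.3), where 11.9% of all cells held it. Seen from Ifng, each of the 2 was in 7 of 42 cells (16.7%). Ccl3 and Ccl4 shared 5 cells, 55.6% of the Ccl3 cells and 50% of the Ccl4 cells. In the cells with Ifng, Ccl4 stood at 142 CPM against 2.71 CPM in the others, so 51 of its 57 UMIs lay there.

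Of the members, Ccl5 shared the most WT-host cells with Ifng: 9, which are 30% of Ccl5 cells and 21.4% of Ifng cells. Ccl5 stood at 320 CPM in WT-host Ifng cells against 63.3 CPM in the others. It shared 1 cell with Ccl3, 3 with Ccl4 and 0 with Xcl1. Xcl1 shared 3 of its 7 WT-host cells with Ifng, among them the cell with the most Ifng, 23 UMIs beside 7 of Xcl1, and none of its 3 MARCH1-/- host cells held another member. In the MARCH1-/- host library Ifng and Ccl5 shared 4 cells (36.4% of Ifng cells, 50% of Ccl5 cells), and Ifng and Tbx21 also shared 4, 36.4% of each. In the WT-host library Ifng and Tbx21 shared 5 cells, 11.9% of Ifng cells and 22.7% of Tbx21 cells. The MARCH1-/- host cell with the most Ccl5, 27 UMIs, also held the most Tbx21 in that library, 3 UMIs, and 1 of Ifng. Many of these overlaps rest on single UMIs. With at least 2 UMIs of each gene, WT-host cells shared by Ifng fell from 7 to 4 with Ccl3, from 7 to 3 with Ccl4, from 9 to 3 with Ccl5 and from 5 to 0 with Tbx21, and MARCH1-/- host ones from 4 to 2 with Ccl5 and from 4 to 0 with Tbx21. Without cycling cells the Ifng and Tbx21 pair shared 2 cells in each library. The median depth of shared WT-host cells ran from 3907 UMIs for Ifng with Ccl5 to 10178 for Ifng with Tbx21 among the pairs with 5 or more.

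**Figure D4:**
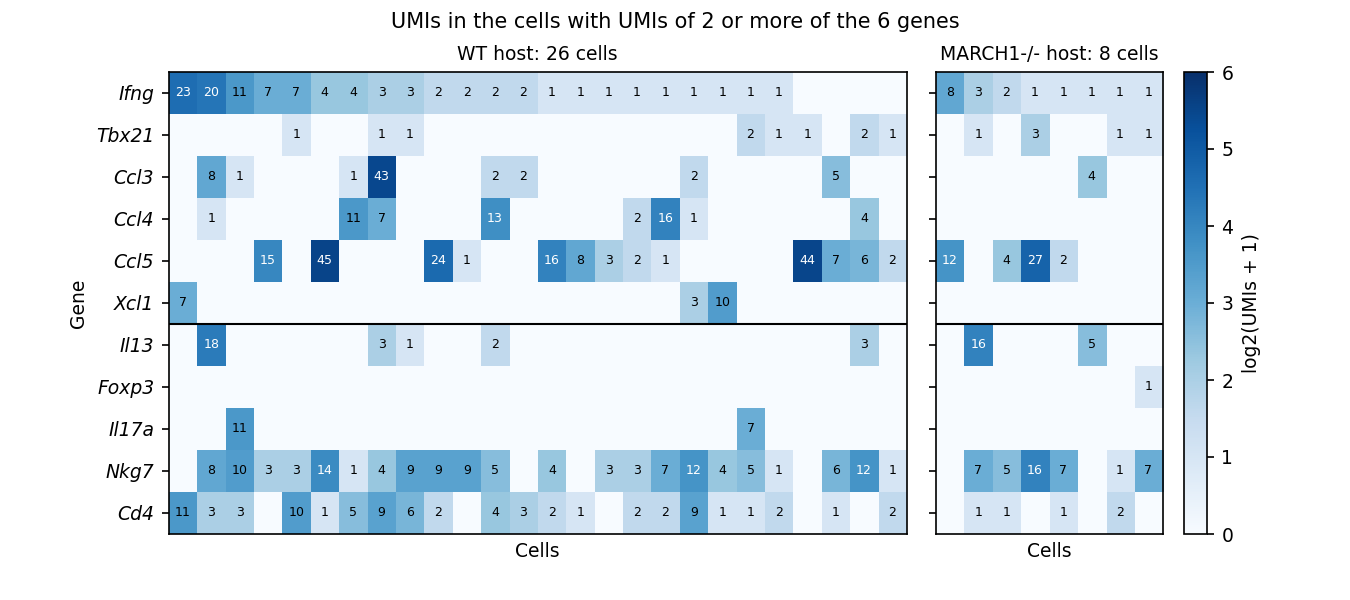
Each column is 1 cell with UMIs of 2 or more of the 6 genes, 26 in the WT-host library and 8 in the MARCH1-/- host library, and each number is a UMI count, coloured as log2(UMIs + 1); rows below the line are genes outside the 6. Ccl3 and Ccl4 sit mostly in Ifng cells, the WT-host cells with 45, 44 and 24 Ccl5 UMIs hold no Il13 UMI while the one with 6 holds 3, and Foxp3 appears in 1 cell.

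Ifng cells also held genes of other helper programmes. Il4, Il5 or Il13, the type 2 cytokines, had a UMI in 15 of 42 WT-host Ifng cells (35.7%, 21.6 to 52.0) and in 39.4% of the other cells. The MARCH1-/- host shares were 3 of 11 (27.3%) and 37.2%. The WT-host cell with 20 Ifng UMIs also held 18 of Il13, the cell with 13 held 19 of Il13, and the cell with 11 held 11 of Il17a. None of these 3 cells was called a doublet, though the next in rank, with 9 Ifng UMIs, was.

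Foxp3, the factor of regulatory T cells, was seen beside Ifng in 1 library. It had a UMI in 0 of 42 WT-host Ifng cells (Clopper-Pearson upper bound 8.41%), where 14.8% of the other cells had one. In MARCH1-/- hosts 3 of 11 Ifng cells (27.3%, 6.02 to 61.0) had one, against 14.5% of the others. The highest Ifng cell there, with 12 UMIs, held 2 of Foxp3, and the 3 cells carried 14 of the 33 Ifng UMIs. The 2 intervals overlap, and this difference rests on 3 cells. Il1rl1, the receptor ST2 for interleukin-33, was in 10 of 42 WT-host Ifng cells (23.8%, 12.1 to 39.5), against 35.8% of the others. In the MARCH1-/- host library, where 69 cells held it, it was in 0 of 11 Ifng cells (upper bound 28.5%), against 47.6% of the others. The Il1rl1 intervals of the 2 libraries overlap as well.

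Type 2 cytokine UMIs were found in 5 of 30 WT-host Ccl5 cells (16.7%, 5.64 to 34.7), against 41.0% of the other cells, and in 1 of 8 in the MARCH1-/- host library (12.5%, 0.32 to 52.7), against 37.8%. The WT-host interval overlaps that of Ifng cells, and 9 cells belong to both. None of the 10 WT-host cells with the most Ccl5, which held 214 of its 255 UMIs, had a UMI of Il4, Il5, Il13 or Foxp3. In molecules, Ccl5 stood at 8.90 CPM in WT-host cells with a type 2 UMI and 1.42 CPM in such MARCH1-/- host cells. The depth differs in the same direction, since those 10 cells held 1210 to 4939 UMIs each and cells with a type 2 UMI had a median of 7987. How far depth alone makes a type 2 UMI rarer in Ccl5 cells was not tested.

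Of the WT-host Ccl3 cells 4 of 9 held a type 2 UMI (44.4%, 13.7 to 78.8), against 38.8% of the other cells. The second highest WT-host Ccl3 cell, with 41 UMIs, held 105 UMIs of Il13, 46 of Il5, 31 of Il4 and no Ifng, while the highest, with 43, held 7 of Ccl4, 3 of Ifng and 3 of Il13. The 4 cells carried 94 of the 105 Ccl3 UMIs, 84 of them in these 2 cells, whose depths were 14383 and 13578 UMIs. The highest WT-host Ccl3 cell also held 2 UMIs of Cd8b1. The single MARCH1-/- host Ccl3 cell held 5 UMIs of Il13 and 1 of Cd8b1, and the single Ccl4 cell there held 1 of Foxp3 and 5 of Nkg7.

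Genes of cytotoxic cells were unevenly present in producing cells. Nkg7, a granule protein of cytotoxic lymphocytes, had a UMI in 32 of 42 WT-host Ifng cells (76.2%, 60.5 to 87.9) against 49.0% of the others. It was in 10 of 10 Ccl4, 8 of 9 Ccl3, 17 of 22 Tbx21, 18 of 30 Ccl5 and 4 of 7 Xcl1 cells of that library, the last 2 near the 51.6% and 52.2% of their other cells. The MARCH1-/- host library had it in 8 of 11 Ifng cells (72.7%, 39.0 to 94.0) and 49.0% of the others, in 8 of 11 Tbx21, 7 of 8 Ccl5 and 1 of 1 Ccl4 cells, and in 0 of 3 Xcl1 and 0 of 1 Ccl3 cells. Gzmb, granzyme B, had a UMI in 26 WT-host cells (7.39%), in 2 of 22 Tbx21 cells and in none of the cells with Ifng, Ccl3, Ccl4, Ccl5 or Xcl1. For the 42 Ifng cells the upper bound of 8.41% includes the share over all cells, so a lower share was not detectable. In the MARCH1-/- host library it was in 3 of 11 Ifng cells and 3 of 11 Tbx21 cells, against 10.9% of all cells. Klrd1, a natural killer and cytotoxic T cell receptor chain, had its 10 WT-host UMIs in 6 Ifng cells, 8 of them in 4 cells that also count among Ccl5 cells, and 0 UMIs in the other library. Ctsw, a cathepsin of cytotoxic cells, stood at 109 CPM in WT-host Ifng cells against 38 CPM in the others, and at 156 CPM against 12.8 CPM in the MARCH1-/- host library. Klrk1, the activating receptor NKG2D, had 17 of its 40 WT-host UMIs and 11 of its 17 MARCH1-/- host UMIs in Ccl5 cells. Cd4 itself was seen in 37 of 42 and 7 of 11 Ifng cells, and in 21 of 30 and 4 of 8 Ccl5 cells.

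Genes were ranked by the mean of their 2 within-library correlations with each member, as Pearson r of log(1 + UMIs per 10000) across 352 and 156 cells, among 6602 genes. The cells of a library share depth and preparation. For Ifng the nearest were Ctsw (r of 0.21 and 0.55), Ccl5 (0.20 and 0.49) and Klrk1 (0.17 and 0.42). For Ccl5 they were Klrk1 (0.28 and 0.66), Ctsw (0.21 and 0.56) and Ifng. For Ccl3 they were Tnip3 (0.29 and 0.63), Ccl1 (0.11 and 0.76) and Atrn (0.15 and 0.45). For Ccl4 they were Nfkbid (0.044 and 0.51), Arl5b (0.11 and 0.43) and Hivep3 (-0.022 and 0.54), and for Xcl1 Nrgn (0.24 and 0.48), Cd9 (0.29 and 0.39) and Gramd1b (0.28 and 0.39). Every one of these was under 0.3 in the WT-host library and counts as weak, and the Ccl3 and Ccl4 values of the MARCH1-/- host library come from 1 positive cell each.

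Receptors of these ligands were measured in the same sorted cells. Ifngr1, the ligand-binding chain of the interferon-gamma receptor, stood at 315 CPM and 318 CPM, while its partner Ifngr2 had 20 and 5 UMIs. Ccr1 stood at 50.6 CPM and 56.5 CPM, and Ccrl2, an atypical receptor, at 9.72 CPM and 17.1 CPM. Of the 5 receptors measured with at least 10 UMIs, 3 were higher and 2 lower in the MARCH1-/- host library, and no interval excluded 0. Over all genes with at least 10 UMIs, 34.2% were lower.

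Of 18 measured Th1 regulators and receptors 13 were lower in the MARCH1-/- host library, with a median log2 ratio of -0.20, beside 34.2% lower and a median of 0.25 over all 9929 genes with at least 10 UMIs. Stat4, which carries the interleukin-12 signal, was at -0.55 (-0.82 to -0.28), and Il18r1, a chain of the interleukin-18 receptor, at -0.59 (-0.93 to -0.26). Id2 was at 0.36 and Bhlhe40, a cofactor of cytokine expression, at -0.16 (-0.33 to 0.020). Without cycling cells 6 of this list were lower. The 34.2% is for all cells, and no share over all genes stands beside the counts without cycling cells. Such counts therefore do not tell a list from genes at large. Of 7 cytotoxic genes measured 5 were lower, Ctsw at -1.19 (-1.79 to -0.63) and Ccl5 among them, and Nkg7 stood at 0.072 (-0.076 to 0.22). Without cycling cells 2 were lower, again with no such share beside the count.

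Of 19 measured genes that respond to interferon-gamma, 7 were lower and 12 higher. That is 36.8% lower, beside 34.2% of all genes, with a median log2 ratio of 0.24, about that of all genes. Without cycling cells 4 were lower, a count with no share over all genes of those cells beside it. Psmb8 and Psmb9, subunits of the immunoproteasome, were at 0.78 (0.65 to 0.91) and 0.67 (0.45 to 0.89), and Gbp7 was at 0.18. Iigp1, an interferon-induced GTPase, went the other way at -1.41 (-2.17 to -0.71).

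Among 13 measured chemokine ligands 6 were lower and 7 higher. That is 46.2% lower, beside 34.2% of all 9929 genes with at least 10 UMIs, and the members Ccl3, Ccl4 and Ccl5 are among the 6. Ccl1, a ligand of Ccr8, was lowest at -4.58 (-5.26 to -3.97), from 857 UMIs in 46 WT-host cells to 22 in 6 MARCH1-/- host cells, and 609 of the 857 lay in 8 Ifng cells. Cxcl2, Cxcl3 and Cxcl5, ligands of Cxcr2, were at 2.13, 2.94 and 1.41. Of 15 effector cytokines 12, Ifng among them, were lower (80%, beside 34.2% of all genes). Besides Ifng, 3 were past -1 with an interval clear of 0: Il5 at -3.15, Il4 at -1.37 and Il13 at -1.25. Of all genes with at least 50 UMIs, 2.81% were at or below -1, counted without regard to intervals.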

How the data were processed

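The deposited files hold UMI counts per gene and barcode, made by the authors with no normalization and before any cell was called. The submitters' processing notes name Cell Ranger 3.1.0 and build mm10, per the labels the kit is 10x 3' v3.1, and per the file headers the matrices were written by version 4 of Cell Ranger. Which gene annotation was used is not given in these sources.

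Cells passed the filter in the report. Scrublet (scanpy 1.11.5, expected rate 0.05, seed 1) called 5 (1.42%) and 5 (3.21%) doublets, which were kept and left out in an alternative. UMIs were summed over cells as counts per 1e6 (CPM), with exact Poisson intervals for sums, exact conditional binomial intervals for ratios, Clopper-Pearson intervals for shares and Newcombe intervals for differences of shares. Intervals and limits cover counting error only. Each ratio is given as log2, with the WT host as its base. A list gene at 0 in 1 library entered at 3 counts. Statistics came from scipy 1.17.1 in Python 3.11.15, tables from pandas 2.3.3 and numpy 2.4.6, and plots from matplotlib 3.10.9. The code was tested on simulated data.

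Named genes were the 6 members, of each list up to 4 genes with the most UMIs and those with a log2 ratio past 1 in size and an interval clear of 0, and the 3 genes most alike to each member with at least 50 UMIs. Other genes named were chosen after their values were seen. Members and lists were chosen with earlier results of these data known. No cells were clustered or given a type. Some members of the gene lists are not reported here by name.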

Additional observations from a re-analysis of the deposited data

Results flagged for a closer look

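Many molecules of these genes lay in barcodes that were not taken as cells, data that the comparisons above do not use. In the WT-host library such barcodes held 127 UMIs of Ifng, 19 of Tbx21, 91 of Ccl3, 133 of Ccl4, 102 of Ccl5 and 143 of Xcl1. In the MARCH1-/- host library they held 20 of Ifng, 6 of Tbx21, 9 of Ccl4, 60 of Ccl5 and 86 of Xcl1. For Ccl5 the order of the libraries was reversed outside cells. There the WT host gave 86.3 CPM (interval 70.3 to 104.7), below the 167 CPM of the MARCH1-/- host (interval 127.7 to 215.4). Ccl5 levels inside cells were 99.2 CPM for the WT host and 38.1 CPM for the MARCH1-/- host. The 60 MARCH1-/- host UMIs of Ccl5 outside cells lay in 60 barcodes. Ifng, Ccl3, Ccl4 and Xcl1 kept outside cells the order they had inside. Xcl1 stood at 121 CPM and 240 CPM outside cells against 10.5 CPM and 15.9 CPM in them. Ifng stood at 269 CPM in the 73 WT-host barcodes that held at least 500 UMIs but failed another filter, where 9 barcodes held its 21 UMIs. How this RNA came to lie outside cells was not tested.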

How the results depend on the processing

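No paired analysis was possible because each group has 1 library. Over 13 alternatives each, Ifng and Ccl5 kept a ratio below 0 (-3.02 to -1.03 and -3.97 to -0.89), as did Ccl3 in the 9 that gave a value (-4.26 to -2.74), and Xcl1 stayed above 0 in its 12. Tbx21 was below 0 in 10 and above in 3. Leaving out the 5 highest cells of each library gave -3.02 for Ifng and -3.97 for Ccl5, and the 1 highest -1.96 for Ccl5. Those cells were picked by UMIs of the gene itself. In the MARCH1-/- host library the 5 held 27 of 33 Ifng UMIs and 56 of 60 Ccl5 UMIs. Without cycling cells Ccl5 was at -0.89 and Ccl4 turned to 0.21, and with cells weighted equally Ccl4 was at -0.057. Xcl1 was at 1.70 (-0.53 to 4.33) without the highest 1% of cells (4 and 2, chosen after seeing the data). After thinning, which left 3 WT-host and 6 MARCH1-/- host UMIs, it was at 2.13 (-0.10 to 4.76). Both intervals include 0. Without the highest 1%, the 1 MARCH1-/- host Xcl1 cell left was the called doublet with 6 UMIs. Cells with any member were 13.1% and 10.3% at 2 or more UMIs, 12% and 8.97% after 1 thinning draw, and 11.8% and 7.95% over all draws. In the 1 highest cell, 0 WT-host members had 50% of their UMIs. The 2 MARCH1-/- host members that did were Ccl3 and Ccl4, each held by 1 cell and under the minimum of 20 UMIs. Of the members above that minimum there, Ifng had 36.4%, Ccl5 45% and Xcl1 48% in the highest cell. No share over all genes was taken for 1 cell. At 2 UMIs of each gene, 2 MARCH1-/- host pairs shared a cell. Without cycling cells 6 Th1 genes, 1 receptor, 2 cytotoxic and 4 interferon-gamma response genes were lower. No share over all genes of those cells stands beside these counts. Once the median gene was subtracted, 4 receptors were lower. Fewer cells or UMIs left 0 on one side, so not run were Ccl3 without the 1 or 5 highest cells, without the highest 1% and thinned, Ccl4 without the 1 or 5 highest or the highest 1%, and Xcl1 without the 5 highest. Depth limits Tbx21 most.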
